A study of Mus musculus with 4 samples.

Results

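The mouse genes of the eukaryotic translation initiation factors (eIFs) were taken as all symbols that begin with *Eif1* to *Eif6*, leaving out *Eif4e1b* and *Eif4enif1*. This gave 53 of the 21957 genes in the table, each with 1 entry, and they were sorted by the complex or role of their protein into 14 groups. An initiation factor is a protein that helps the ribosome find the start codon of an mRNA. eIF2 carries the initiator tRNA to the small ribosomal subunit, eIF2B recharges eIF2 with GTP, and the eIF2 kinases slow initiation by phosphorylating eIF2. eIF3 is the large scaffold on the small subunit, eIF4E, eIF4G and eIF4A bring the capped mRNA, 4E-binding proteins compete with eIF4G for eIF4E, and eIF5 and eIF5B complete start-codon recognition and subunit joining. A growing oocyte stores mRNA, and a fully grown one makes almost none, so meiotic maturation runs on the translation, poly(A) tailing and decay of that store.

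Oocytes came from B6D2F1 (C57BL/6 x DBA) female mice of 6 to 8 weeks, primed with PMSG, and were freed of cumulus cells. GV oocytes, arrested in prophase with an intact germinal vesicle, were taken at 0 h. MII oocytes were cultured for 12 h without drug and picked for an extruded polar body. TubA-10 and TubA-20 oocytes were cultured for 12 h with 10 or 20 μM tubastatin A (TubA), a small molecule made to inhibit the deacetylase HDAC6 and dissolved in DMSO. The sources used here give no pick by stage for the TubA oocytes and no DMSO control, so the effects of drug, solvent and meiotic stage cannot be told apart. Doses follow the sample titles. The treatment field instead has 20 μM in the entry for TubA-10 and 11 μM in that for TubA-20. Each of the 4 conditions was 1 library, so no difference has a replicate check and no p-value is printed. The study's methods give 100 oocytes a pool, while its discussion speaks of single oocytes, so the number behind each library is not certain.

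All values are FPKM, fragments per kilobase of transcript, scaled to the mapped fragments of the library. Changes are log2 ratios of FPKM + 1, which understate the change of low genes, and a gene is said to have risen or fallen when the ratio passed 2-fold. FPKM over all genes summed to between 568331 and 627340, and by the spacing of the lowest values the depth relative to GV was estimated at 1.62 in MII, 1.70 with 10 μM and 0.897 with 20 μM TubA. These are rough estimates that do not settle which of GV and TubA-20 was deeper. The read totals that the paper reports are higher for TubA-20 than for GV, the reverse of the estimate. For MII and TubA-10 only 20.9% and 27.0% of the genes near the step between low values lay on it. The median change against GV of the 9193 genes with at least 1 FPKM in all 4 libraries was 0.13 in MII, and 0.14 and 0.19 in the TubA libraries by rising dose. All 10 oocyte markers were above 1 FPKM in every library. Of 12 cumulus and granulosa markers 1 to 3 were above 1 FPKM, with summed levels of 17.5 in GV and 8.97 to 15.7 in the cultured libraries, *Foxl2* listed at 0 in each, and *Inha* at 7.502 in GV against 0.239 to 0.314 in the other libraries. *Cyp19a1* was at 6.14 in GV and 7.42 to 10.3 in the cultured libraries, and *Ptx3* and *Tnfaip6* were listed at 0 in GV and reached 1.19 and 1.57 in TubA-20. Their part in the results was not tested. Since poly(A)+ RNA was selected, less mRNA, shorter poly(A) tails and, if oocytes were pooled, fewer oocytes that carry a transcript cannot be told apart.

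Of the 53 genes, 50 reached 1 FPKM, 44 reached 10 FPKM and 23 reached 100 FPKM in at least 1 library. Together they took 1.03% of the summed FPKM in GV, 0.950% in MII, and 1.005% and 1.11% at the lower and higher TubA dose. The combined share thus moved little between libraries. The median level of the 53 genes was 62.9 FPKM in GV and lay between 27.8 and 32.7 in the cultured libraries, while the most abundant member, *Eif1*, stood at 1344 FPKM in TubA-20. Single members moved much further than the sum.

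**Figure D1:**
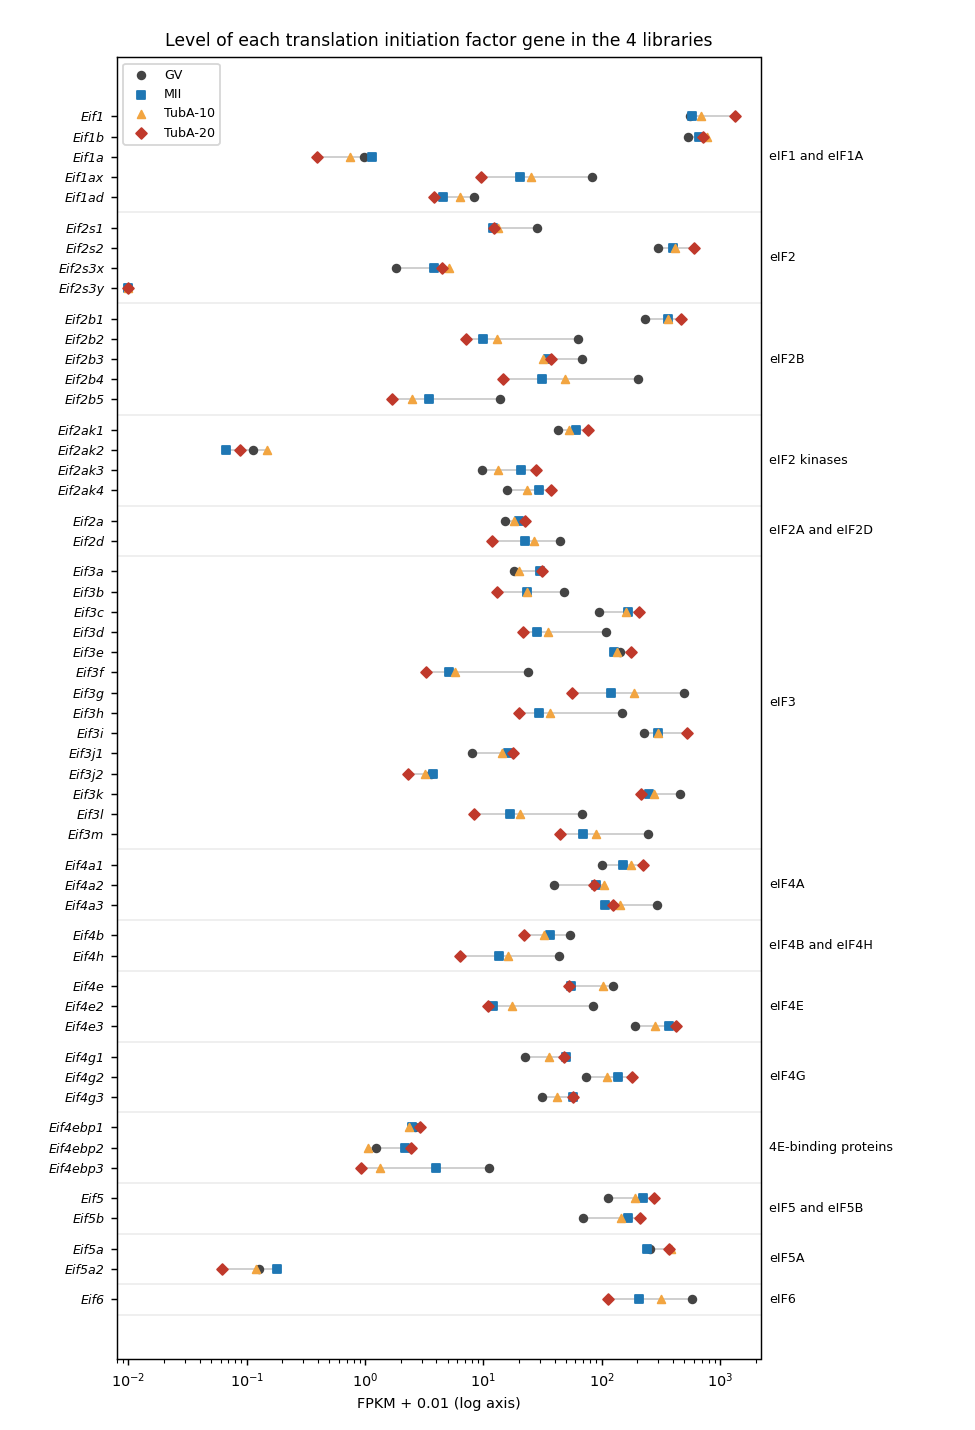
FPKM plus 0.01 on a log axis for each of the 53 initiation factor genes, 1 row a gene, ordered by group, with 1 marker for each of the 4 libraries and a grey line from the lowest to the highest. Most eIF2B and eIF3 genes are highest in GV (grey circles), while the eIF4G, eIF5, eIF5B and expressed eIF2 kinase genes are lowest in GV.

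In MII against GV, 4 of the 53 genes rose, where 3.05% of all genes did, and 18 fell, where 8.34% did. The TubA-10 library had 3 higher than in GV (0.742% of all genes) and 17 lower (5.6%). The TubA-20 library had 14 higher than in GV (7.61% of all genes) and 21 lower (11.7%). These all-gene shares include 5087 genes listed at 0 throughout. Among the 6368 genes with at least 10 FPKM in 1 of the 4 libraries, 22.5% were higher and 27.4% lower in TubA-20 than in GV, against 14 and 21 of the 44 members at that level. For MII against GV the shares of these genes were 9.22% higher and 21.5% lower, against 4 and 18 of the same 44 members. For TubA-10 against GV they were 1.82% and 14.7%, against 2 and 17. The median change of the 53 genes from GV was -0.06 (MII), -0.12 (TubA-10) and -0.03 (TubA-20), and that of all 21957 genes was 0.00 in each. Over genes at 10 FPKM or above the medians were -0.37, -0.19 and -0.28 for the 44 members and 0.14, 0.19 and 0.27 for all 6368 genes. With a minimum of 5 FPKM in 1 of the libraries compared, the TubA-20 median of the members was -0.86, the value of *Eif2b3*. The medians covered members as far apart as -3.68 and 1.57 in TubA-20. The 3 comparisons share the GV library. With the median change of the 9193 genes with at least 1 FPKM in all libraries set to 0, the split for TubA-20 against GV went from 14 higher and 21 lower to 5 and 23. The 5 are *Eif1*, *Eif2ak3*, *Eif4g2*, *Eif5* and *Eif5b*, while *Eif2s2*, *Eif2ak4*, *Eif3c*, *Eif3i*, *Eif3j1*, *Eif4a1*, *Eif4a2*, *Eif4e3* and *Eif4g1* then lay between 0.83 and 0.998. Setting libraries to equal *Gapdh* gave splits of 11 higher and 15 lower in MII and 7 and 13 in TubA-10, and equal FPKM sums gave 8 and 17 in MII.

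**Figure D2:**
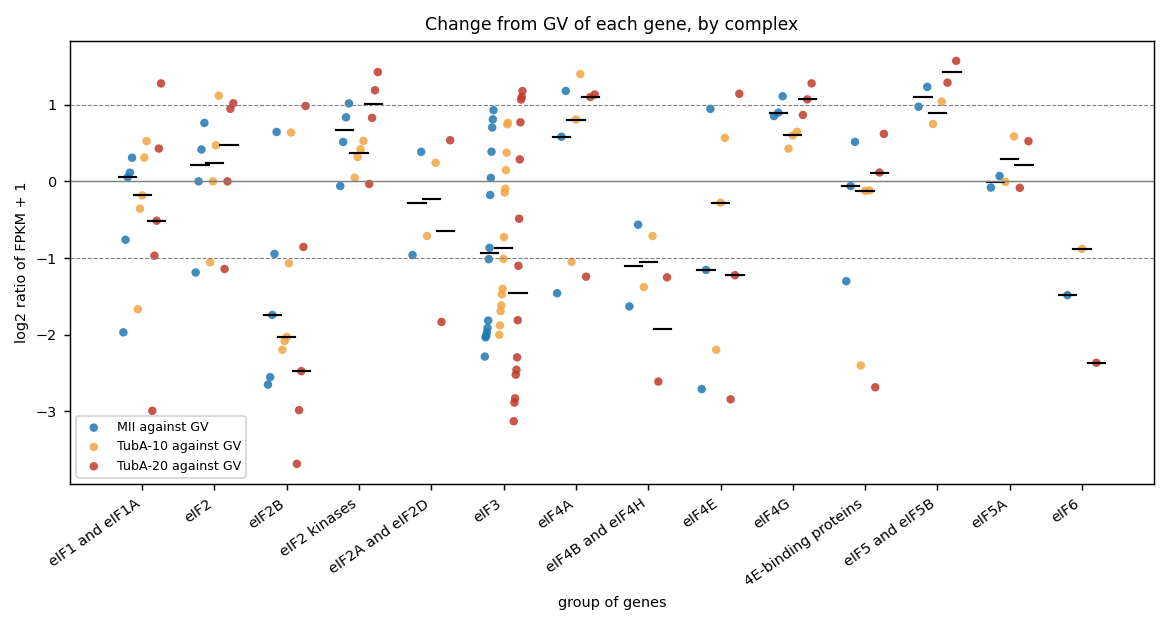
Log2 ratio of FPKM + 1 against GV (vertical axis) for every gene of each group (horizontal axis), with MII in blue, TubA-10 in orange and TubA-20 in red, a black bar at the median of the group and dashed lines at 2-fold. The eIF2B median lies between -1.74 and -2.47, while the eIF4G median lies between 0.60 and 1.07, in the 3 comparisons.

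The 3′ end of an mRNA is where its tail is set, so the expressed members were read for the sites that govern tailing in oocytes. A cytoplasmic polyadenylation element (CPE, searched as TTTTAT or TTTTAAT on the transcript strand only) is bound by CPEB and can direct tail lengthening during maturation. Within the last 100 bases of the 3′ UTR, or the whole of a shorter one, a CPE was found in 5 of the 53 genes (9.43%) and in 17.1% of the 20668 genes with a usable 3′ UTR. Among genes at 10 FPKM or above it was in 3 of the 44 members (6.82%) and in 21.1% of the 6316 genes with a usable 3′ UTR. These 3 are printed here, 5′ to 3′, with the CPE in capitals, because one of them rose and the others fell.
*Eif1ax*, chrX:159389887-159389916, plus strand: attcagtggatgTTTTATgctgcacaaata
*Eif3m*, chr2:104999691-104999720, minus strand: atTTTTATgaaaatgattttgttcgttgag
*Eif4e3*, chr6:99625205-99625234, minus strand: aaTTTTATttttgaactttatttaaagcat
The CPE of *Eif1ax* ended 24 bases, that of *Eif3m* 57 bases and that of *Eif4e3* 92 bases before the end of the UTR. *Eif1ax* and *Eif3m* fell in every cultured library, and *Eif4e3* rose in TubA-20. A CPE in this window thus did not go with 1 direction among these 3 members, too few for more than a description.

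The nuclear polyadenylation signal (AATAAA or ATTAAA, transcript strand only, within the last 40 bases) was found in 40 of the 53 genes and in 72.7% of the same 20668 genes. Among members at 10 FPKM or above, 12 of the 14 that rose in TubA-20 held it and 12 of the 21 that fell did, beside 82.8% and 70.6% of all such genes that rose and fell. The members that fell in TubA-20 and lacked the signal in this window were *Eif1ax*, *Eif2s1*, *Eif2b5*, *Eif2d*, *Eif3f*, *Eif3g*, *Eif3l*, *Eif3m* and *Eif4ebp3*. Of the eIF2B and eIF3 genes that fell, *Eif3b*, *Eif3d*, *Eif3h*, *Eif3k*, *Eif2b2* and *Eif2b4* held it. It was present in *Eif3c*, *Eif3i* and *Eif3j1*, which rose. Of the members that rose, only *Eif4g2* and *Eif5* lacked it. Of the genes printed above with a CPE, *Eif1ax* and *Eif3m* thus lacked the signal and *Eif4e3* held it. The pairs of subunits below, 1 higher and 1 lower within a complex, were chosen among the genes that carry it, in capitals.
*Eif2b1*, chr5:124570215-124570244, minus strand: ctgagtgctgggATTAAAgatgtgtaccat
*Eif2b4*, chr5:31187569-31187598, minus strand: ggaacaagggtcAATAAAaagcttactccc
*Eif3i*, chr4:129591979-129592008, minus strand: tttagactgagaAATAAAttagtttgttaa
*Eif3k*, chr7:28971376-28971405, minus strand: ccagtgtgcgttAATAAAgatttgttcact
The subunits differ in which of the signals they carry in the eIF2B pair and share AATAAA in the eIF3 pair. All coordinates are 1-based on GRCm38 (mm10), from GENCODE M21 models. A match is a run of letters and not a tested site.

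The length of the 3′ UTR differed between members that rose and fell. In TubA-20 against GV the 14 members that rose had a median 3′ UTR of 846 bases, and the 21 that fell had a median of 303 bases. The ranges overlapped widely, from 93 to 4942 bases in the former and from 35 to 4515 bases in the latter. Of all genes at 10 FPKM or above, the 1411 with a usable UTR that rose had a median of 1292 bases and the 1700 that fell had a median of 389 bases, so the order of the medians was that of the table as a whole. A CPE in the last 100 bases was held by 32.1% of those 1411 genes and 9.76% of the 1700, and by 1 of the 14 and 2 of the 21 members. With so few members these counts are a description.

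**Figure D3:**
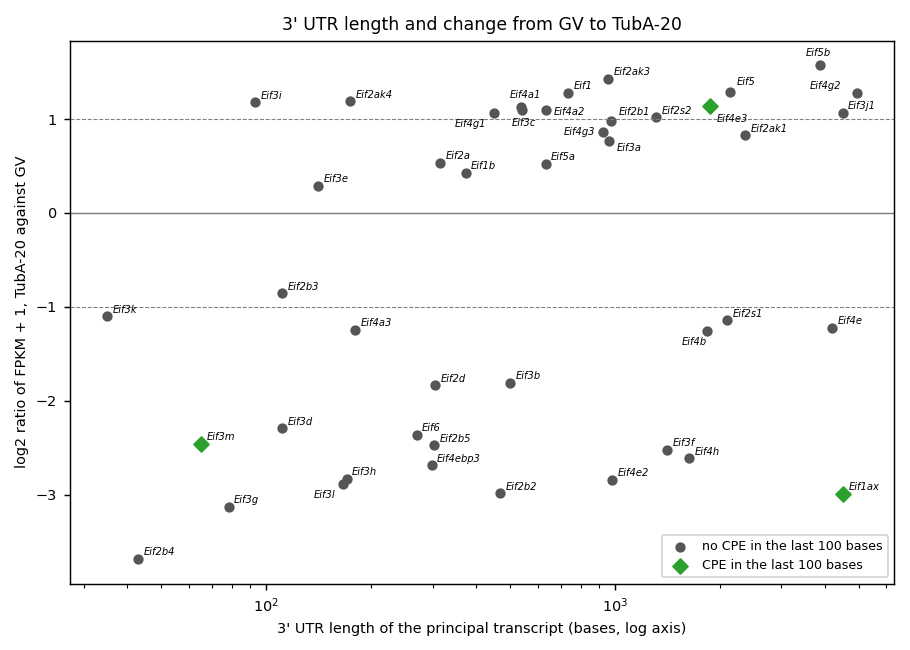
Log2 ratio of FPKM + 1 in TubA-20 against GV (vertical axis) by length of the 3′ UTR in bases (log axis) for the 44 members at 10 FPKM or above, with green diamonds for the 3 that hold a CPE in the last 100 bases and dashed lines at 2-fold. Higher members have a median 3′ UTR of 846 bases and lower members of 303 bases, with much overlap.

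eIF1 and eIF1A sit on the small subunit and keep it open for scanning. *Eif1* was at 554 FPKM in GV, 575 in MII, 687 at the lower and 1344 at the higher TubA dose. Its level was highest in TubA-20, with a change of 1.28 against GV and 1.22 against MII, while 0.97 against TubA-10 was within 2-fold. Its paralog *Eif1b*, with 81.1% identical coding bases, was at 537, 665, 773 and 723 FPKM in GV, MII, TubA-10, then TubA-20, within 2-fold in each comparison. So the 2 paralogs were nearly level in GV and MII, and *Eif1* was the higher one in TubA-20. Of the 100-base windows of the *Eif1* transcript, 19.2% also occur in other transcripts, so its level is uncertain to that extent.

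*Eif1ax*, which encodes the X-linked eIF1A, went the other way. It was at 82.4 FPKM in the GV library, 20.3 in MII, 25.2 at 10 μM and 9.48 at 20 μM TubA. Its changes from GV were -1.97 (MII), -1.67 (TubA-10) and -2.99 (TubA-20), and TubA-20 was also below MII (-1.02) and TubA-10 (-1.32). The value against MII is near the threshold and becomes -0.94 with equal upper quartiles. The autosomal copy *Eif1a* stayed between 0.384 and 1.14 FPKM, and *Eif1ad*, an eIF1A domain gene, between 3.78 and 8.36.

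eIF2 is made of α, β and γ subunits, and their transcripts differed in level and direction. *Eif2s1*, the α subunit that the kinases phosphorylate, was at 28.6 FPKM in GV and 11.98 in MII, with 13.2 in TubA-10 against 12.4 in TubA-20. It fell in all 3 cultured libraries, with changes of -1.19, -1.06 and -1.14 in that order. The falls in MII and TubA-10 do not pass 2-fold when libraries are set to equal *Gapdh*. *Eif2s2*, the β subunit, was at 298 FPKM in GV, 397 in MII, 413 at the lower and 604 at the higher TubA dose. It was lowest in GV and rose only in TubA-20 (1.02). *Eif2s3x*, the X-linked γ subunit, was at 1.82, 3.78, 5.12 and 4.43 FPKM in GV, MII, TubA-10, then TubA-20, with 35.3% of its windows shared, and passed 2-fold in TubA-10 (1.12). Its Y-linked copy *Eif2s3y* was listed at 0 in all libraries. The β transcript thus made up 90.7% of the summed eIF2 FPKM in GV and 97.3% in TubA-20. Of the windows of *Eif2s2*, 18.8% also occur in other transcripts, so its level and these shares are uncertain to that extent.

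eIF2B has a regulatory part, of α, β and δ, and a catalytic part, of γ and ε, where ε holds the exchange activity. Here 1 subunit transcript was higher in every cultured library than in GV, not past 2-fold, and the other 4 were lower. *Eif2b1*, the α subunit, was at 234 FPKM in the GV library, 367 in MII, 365 at 10 μM and 464 at 20 μM TubA. Against GV these were changes of 0.64, 0.64 and 0.98, so it came close to 2-fold in TubA-20 without passing it. *Eif2b4*, the δ subunit, was at 202 FPKM in GV and 31.3 in MII, with 48.7 in TubA-10 against 14.8 in TubA-20. This member had the deepest fall of all 53 in TubA-20 against GV, with a log2 change of -3.68, or a 13.6-fold lower FPKM. Its changes from GV were -2.65 in MII and -2.03 in TubA-10, and it was lower in TubA-20 than in MII (-1.03) and TubA-10 (-1.65). With equal upper quartiles the value against MII was -0.94, inside 2-fold.

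*Eif2b2*, the β subunit, was at 62.9 FPKM in GV, 9.89 in MII, 12.9 at the lower and 7.08 at the higher TubA dose. From GV it changed by -2.55, -2.20 and -2.98, with all cultured libraries far below GV and within 2-fold of each other. *Eif2b5*, the catalytic ε subunit, was at 13.8 FPKM in the GV library, 3.43 in MII, 2.499 at 10 μM and 1.67 at 20 μM TubA. Its changes were -1.74, -2.08 and -2.47, and it remained the lowest of the 5 in every library. *Eif2b3*, the γ subunit, was at 68.6 FPKM in GV and 35.1 in MII, with 32.2 in TubA-10 against 37.5 in TubA-20. Its fall passed 2-fold in TubA-10 (-1.07, or -0.81 with equal *Gapdh*), while the values in MII (-0.95) and TubA-20 (-0.86) did not, and all of them lie near the threshold.

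In GV the highest eIF2B transcript was 17.0 times the lowest, which became 107 times in MII, 146 times at 10 μM and 278 times at 20 μM TubA. *Eif2b1* made up 40.3% of the summed eIF2B FPKM in GV and 82.1% in MII, then 79.1% and 88.4% at the lower and higher dose. The sum itself moved less, from 581 FPKM in GV to between 446 and 525 in the cultured libraries. These are transcript levels, and protein was not measured.

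**Figure D4:**
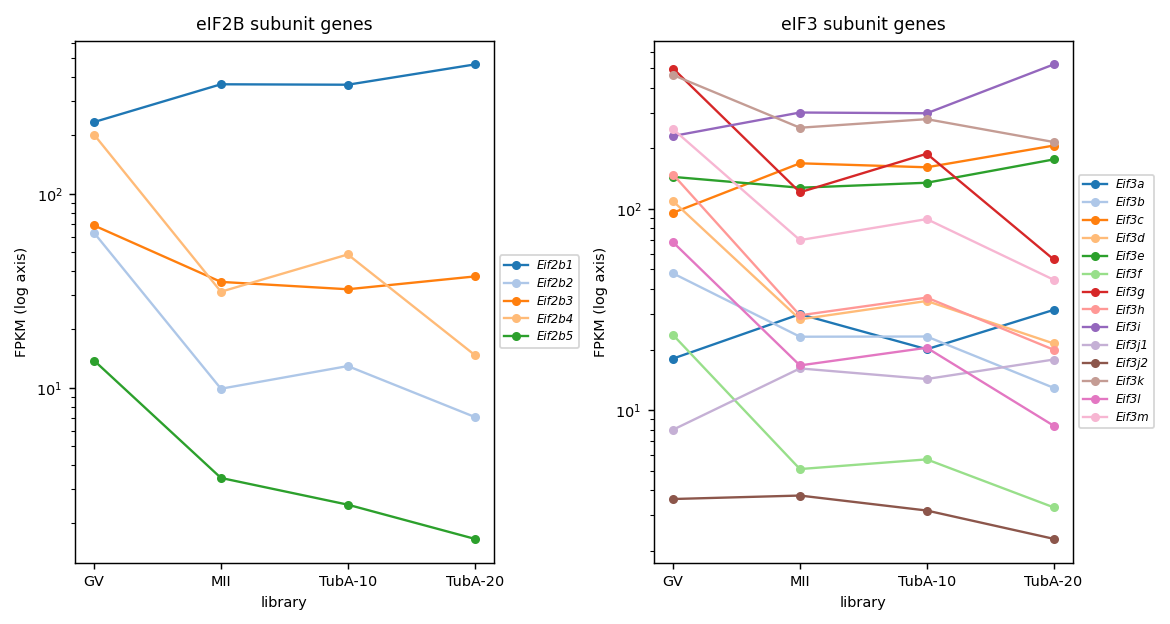
FPKM on a log axis of each eIF2B subunit gene (left) and each eIF3 subunit gene (right) in the 4 libraries, 1 line a gene; lines join the libraries of a gene and mark no time course. *Eif2b1* lies further above the other eIF2B genes outside GV, and the eIF3 genes part into some that are higher and more that are lower than in GV.

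The 4 eIF2 kinases each answer to a different stress and share eIF2α as substrate. *Eif2ak1*, the heme-regulated kinase HRI, was the most abundant, at 42.3 FPKM in GV, 60.9 in MII, 53.0 at the lower and 76.0 at the higher TubA dose, all within 2-fold of GV. *Eif2ak3*, the endoplasmic reticulum kinase PERK, was at 9.71 FPKM in the GV library, 20.7 in MII, 13.3 at 10 μM and 27.8 at 20 μM TubA. It rose in MII (1.02) and TubA-20 (1.43) against GV and in TubA-20 against TubA-10 (1.01). The values of 1.02 and 1.01 end as calls with the median change set to 0. *Eif2ak4*, the amino acid sensor GCN2, was at 16.0 FPKM in GV and 29.2 in MII, with 23.4 in TubA-10 against 37.6 in TubA-20, and its change of 1.19 in TubA-20 passed 2-fold. GV was the lowest and TubA-20 the highest library for these 3 kinases. *Eif2ak2*, the double-stranded RNA kinase PKR, was near 0 throughout, at 0.102, 0.0570, 0.139 and 0.0770 FPKM in GV, MII, TubA-10, then TubA-20.

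eIF2A and eIF2D are separate proteins that can deliver initiator tRNA without eIF2. *Eif2a* stayed between 15.2 and 22.5 FPKM. *Eif2d* was at 44.8 FPKM in GV, 22.5 in MII, 27.0 at the lower and 11.9 at the higher TubA dose. It fell in TubA-20 against GV (-1.83) and against TubA-10 (-1.12, or -0.997 with equal upper quartiles), with values of -0.96 in MII and -0.71 in TubA-10 against GV.

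eIF3 had 14 genes here, more than any other group. Against GV, none rose and 7 fell in MII, none rose and 7 fell in TubA-10, and 3 rose and 8 fell in TubA-20. Of all genes, 3.05% rose and 8.34% fell in MII, 0.742% and 5.6% did so with 10 μM, and 7.61% and 11.7% with 20 μM TubA. At 10 FPKM or above these shares were 9.22% and 21.5%, 1.82% and 14.7%, and 22.5% and 27.4%. The group's summed FPKM was 2105 in GV and lay between 1193 and 1337 in the cultured libraries. Its median change from GV was -0.94 (MII), -0.87 (TubA-10) and -1.46 (TubA-20), where that of all genes was 0.00. Over all genes at 10 FPKM or above the medians were 0.14, 0.19 and 0.27.

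In mammals *Eif3a*, *Eif3c*, *Eif3e*, *Eif3f*, *Eif3h*, *Eif3k*, *Eif3l* and *Eif3m* encode the octamer of PCI and MPN proteins that forms the body of eIF3. *Eif3h* was at 148 FPKM in the GV library, 29.6 in MII, 36.2 at 10 μM and 20.0 at 20 μM TubA. It fell in each cultured library, with changes of -2.28 in MII and -2.83 in TubA-20. *Eif3l* was at 68.2, 16.7, 20.4 and 8.37 FPKM in GV, MII, TubA-10, then TubA-20, with changes of -1.97, -1.69 and -2.88 against GV. *Eif3m*, shown with its CPE above, was at 249 FPKM in GV and 69.9 in MII, with 88.9 in TubA-10 against 44.5 in TubA-20, and had changes of -1.81, -1.47 and -2.46. *Eif3f* was at 23.6, 5.10, 5.69 and 3.29 FPKM in the same order and had changes of -2.01, -1.88 and -2.52. In all 4 genes GV was highest and TubA-20 lowest. *Eif3k* was milder, at 462 FPKM in GV, 253 in MII, 279 at the lower and 215 at the higher TubA dose, and passed 2-fold in TubA-20 only (-1.10), a call that ends at -0.95 with equal upper quartiles.

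Within the same octamer *Eif3c* was at 95.7 FPKM in the GV library, 168 in MII, 161 at 10 μM and 206 at 20 μM TubA. It rose in TubA-20 (1.10), with values of 0.81 in MII and 0.74 in TubA-10. *Eif3a*, the largest eIF3 subunit, stayed within 2-fold at 18.04, 29.98, 20.1 and 31.5 FPKM in GV, MII, TubA-10, then TubA-20, and *Eif3e* did so between 127 and 176. With the median change set to 0 the TubA-20 value of *Eif3c* was 0.91, and with equal *Gapdh* its MII and TubA-10 values were 1.04 and 1.01. The octamer genes thus differed in direction, since 4 of the 8 fell in every cultured library while *Eif3c* was above GV in each and passed 2-fold in TubA-20.

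The other eIF3 genes, around the b, g and i module that reaches the mRNA channel, parted in the same manner. *Eif3g* was the most abundant eIF3 transcript in GV at 498 FPKM, and was at 121 in MII, 188 at 10 μM and 56.1 at 20 μM TubA. Its changes from GV were -2.03, -1.40 and -3.13, and TubA-20 was also below MII (-1.09) and TubA-10 (-1.73). *Eif3i*, its partner in the module, was at 230 FPKM in GV and 301 in MII, with 298 in TubA-10 against 522 in TubA-20. It rose in TubA-20 against GV (1.18) and became the most abundant eIF3 transcript of each cultured library. *Eif3b*, the scaffold of the module, was at 47.8, 23.2, 23.2 and 12.9 FPKM in GV, MII, TubA-10, then TubA-20. Its changes of -1.01 in MII and TubA-10 lie at the threshold and end as calls under 3 of the other scalings, while that of -1.81 in TubA-20 does not.

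*Eif3d*, which can bind the cap of some mRNAs, was at 109 FPKM in GV, 28.3 in MII, 34.9 at the lower and 21.4 at the higher TubA dose. It fell in all of them, with changes of -1.91, -1.62 and -2.29. *Eif3j1*, a loosely bound subunit, was at 8.00 FPKM in the GV library, 16.1 in MII, 14.3 at 10 μM and 17.8 at 20 μM TubA, and passed 2-fold in TubA-20 (1.07). With the median change set to 0 this was 0.88. The change in MII was 0.93, and passed 2-fold with either smaller pseudocount, equal FPKM sums or equal *Gapdh* (up to 1.14). That in TubA-10 was 0.76, and 1.01 with equal *Gapdh*. The level of *Eif3j1* is uncertain, because *Eif3j1* and *Eif3j2* are identical over the 783 coding bases that align and share 47.6% and 84.0% of their windows with other transcripts. *Eif3j2* stayed between 2.30 and 3.76 FPKM.

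eIF4A is the helicase that opens structure in the 5′ UTR. *Eif4a1* was at 101 FPKM in GV and 152 in MII, with 177 in TubA-10 against 223 in TubA-20, and *Eif4a2* was at 39.3, 90.2, 105 and 85.3 FPKM in the same libraries. Against GV, *Eif4a1* passed 2-fold in TubA-20 (1.13), and *Eif4a2* in MII (1.18), TubA-10 (1.40) and TubA-20 (1.10). *Eif4a1* shares 60.8% of its windows with other transcripts, so its level is uncertain. *Eif4a3*, a core protein of the exon junction complex and not of the cap complex, fell. It was at 294 FPKM in GV, 106 in MII, 142 at the lower and 124 at the higher TubA dose, with changes of -1.46, -1.05 and -1.24. The value of -1.05 in TubA-10 does not pass 2-fold with equal sums or equal *Gapdh*. *Eif4a3* made up 67.7% of the summed eIF4A FPKM in GV, and *Eif4a1* was the highest of the group in every cultured library.

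eIF4B and eIF4H stimulate the eIF4A helicase. *Eif4b* was at 54.2 FPKM in the GV library, 36.3 in MII, 32.7 at 10 μM and 22.2 at 20 μM TubA, and passed 2-fold in TubA-20 (-1.25). *Eif4h* was at 43.9 FPKM in GV and 13.5 in MII, with 16.3 in TubA-10 against 6.36 in TubA-20. Its changes from GV were -1.63, -1.38 and -2.61, and TubA-20 was below TubA-10 (-1.23). Both were highest in GV and lowest in TubA-20, whereas *Eif4a1* was the reverse.

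The eIF4E proteins bind the cap, and their transcripts kept the order *Eif4e3*, *Eif4e*, *Eif4e2* in each library while their shares changed. *Eif4e*, the canonical cap-binding factor, was at 124 FPKM in GV, 55.2 in MII, 102 at the lower and 52.6 at the higher TubA dose. TubA-10 stayed close to GV (-0.28), while MII (-1.16, or -0.93 with equal *Gapdh*) and TubA-20 (-1.22) fell. *Eif4e2*, also called 4EHP and known as a cap-bound repressor, was at 84.3 FPKM in the GV library, 12.04 in MII, 17.6 at 10 μM and 10.9 at 20 μM TubA. Its changes were -2.71, -2.20 and -2.84, and it had the deepest fall of all 53 genes in MII. *Eif4e3*, a cap-binding homologue, was at 192 FPKM in GV and 370 in MII, with 284 in TubA-10 against 424 in TubA-20, rising past 2-fold in TubA-20 (1.14). With the median change set to 0 this was 0.95. The change in MII was also 0.95, and passed 2-fold with equal FPKM sums, equal upper quartiles or equal *Gapdh* (up to 1.17). *Eif4e3* made up 47.9% of the summed eIF4E FPKM in GV and 84.6% in MII, then 70.4% and 87.0% at the lower and higher dose. *Eif4e* shares 56.8% of aligned coding bases with *Eif4e2* and 53.3% with *Eif4e3*, and at most 7.53% of the windows of any of the 3 are found elsewhere.

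eIF4G is the scaffold between cap and ribosome, and its 3 genes were lowest in GV. *Eif4g1* was at 22.5 FPKM in GV, 49.8 in MII, 35.9 at the lower and 48.4 at the higher TubA dose. It rose in MII (1.11) and TubA-20 (1.07), with 0.65 in TubA-10. With the median change set to 0 both calls end, at 0.98 and 0.88. *Eif4g2*, also called DAP5 and lacking the eIF4E site, was at 73.3, 137, 111 and 179 FPKM in GV, MII, TubA-10, then TubA-20, and passed 2-fold in TubA-20 (1.28). *Eif4g3* was at 31.1, 56.9, 42.1 and 57.5 FPKM in the same order and stayed within 2-fold. TubA-10 lay between GV and MII for each of the 3.

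The 4E-binding proteins were low. *Eif4ebp1* was at 2.62 FPKM in the GV library, 2.47 in MII, 2.32 at 10 μM and 2.92 at 20 μM TubA, and *Eif4ebp2* was at 1.23, 2.18, 1.05 and 2.42 FPKM. Neither passed 2-fold in any comparison on this scale. With 0.01 in place of 1 added to FPKM, *Eif4ebp2* did so in TubA-20 against TubA-10 (1.196) and in TubA-10 against MII (-1.05). *Eif4ebp3* was at 11.3 FPKM in GV and 3.97 in MII, with 1.32 in TubA-10 against 0.906 in TubA-20. Its changes from GV were -1.30, -2.40 and -2.68, and both TubA-10 (-1.10) and TubA-20 (-1.38) were below MII. It shares 62.8% of its windows with another gene model, so the source of these fragments is uncertain. The 3 genes together were at 15.1 FPKM in GV, where *Eif4e*, *Eif4e2* and *Eif4e3* summed to 399.9 FPKM, and at 6.25 in TubA-20, where the eIF4E genes summed to 487.

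*Eif5*, the GTPase activator of eIF2, was at 113 FPKM in GV, 223 in MII, 191 at the lower and 278 at the higher TubA dose. It passed 2-fold in TubA-20 (1.29), with 0.97 in MII and 0.75 in TubA-10. *Eif5b*, the GTPase that joins the large subunit, was at 70.2 FPKM in the GV library, 166 in MII, 145 at 10 μM and 210 at 20 μM TubA. It rose in MII (1.23), TubA-10 (1.04) and TubA-20 (1.57), the last being the highest change of the 53 genes in that comparison. The value of 1.04 ends as a call, at 0.90, with the median change set to 0. GV was lowest and TubA-20 highest for both genes.

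*Eif5a*, the hypusinated factor that mainly serves elongation and termination, stayed within 2-fold between 242 and 385 FPKM, and *Eif5a2* reached no more than 0.172. *Eif6*, which keeps the large subunit from joining early, was at 582 FPKM in GV and 207 in MII, with 316 in TubA-10 against 112 in TubA-20. It was the most abundant member in GV and fell in MII (-1.48) and TubA-20 (-2.36), with -0.88 in TubA-10. TubA-20 was below TubA-10 (-1.48). The joining factor *Eif5b* and the anti-joining factor *Eif6* were thus ordered in opposite ways across the libraries, with *Eif6* at 8.29 times *Eif5b* in GV and 0.533 times in TubA-20.

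Set against MII rather than GV, the TubA libraries had fewer members past 2-fold. In TubA-10 against MII none of the 53 genes rose (0.515% of all genes did) and 1 fell (0.128%), which was *Eif4ebp3*. In TubA-20 against MII 1 rose (0.328% of all genes), *Eif1*, and 4 fell (2.44%), namely *Eif1ax*, *Eif2b4*, *Eif3g* and *Eif4ebp3*. With equal upper quartiles the split for TubA-20 was 1 and 2, and with equal FPKM sums, equal *Gapdh* or a pseudocount of 0.01 it was 1 and 8. Medians were 0.05 and 0.01, where those of all genes were 0.00. Over genes at 10 FPKM or above they were 0.11 and 0.03 for the 44 members and 0.02 and 0.04 for all 6368 genes. Both comparisons share the MII library. Of the 6368 genes at 10 FPKM or above, 1.33% lay above and 0.204% below MII in TubA-10, against 0 and 1 of the 44 members. For TubA-20 these shares were 0.424% and 7.15%, against 1 and 4 members. *Eif4ebp3*, counted as lower in both comparisons, reached 10 FPKM only in GV (11.3) and was at 3.97 FPKM in MII. It shares 62.8% of its windows with another gene model, so these calls are uncertain. Just inside the threshold in TubA-20 against MII were *Eif4h* (-0.98), *Eif3l* (-0.92), *Eif6* (-0.88) and *Eif2d* (-0.87), and just inside it in TubA-10 against MII was *Eif4e* (0.88).

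**Figure D5:**
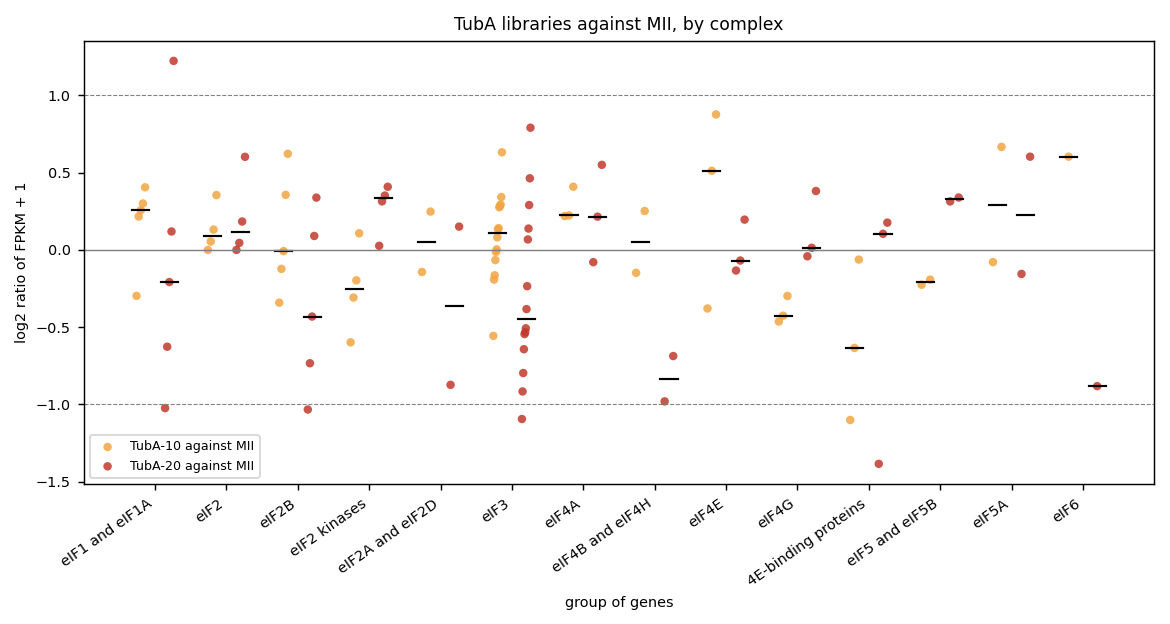
Log2 ratio of FPKM + 1 against MII (vertical axis) for every gene of each group (horizontal axis), with TubA-10 in orange and TubA-20 in red, a black bar at the median of the group and dashed lines at 2-fold. Of the 53 genes, 1 lies beyond the lines for TubA-10 and 5 lie beyond them for TubA-20.

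The doses were also set against each other. In TubA-20 against TubA-10 1 of the 53 genes was higher (0.66% of all genes), which was *Eif2ak3*, and 7 were lower (5.52%). Besides *Eif1ax*, *Eif2b4*, *Eif2d*, *Eif3g*, *Eif4h* and *Eif6* the lower members included *Eif3l* (-1.19). Of the 6368 genes at 10 FPKM or above, 1.49% were higher and 16.0% lower, against 1 and 7 of 44 members. With equal FPKM sums the split was 0 and 9. The median change was -0.09 for the 53 genes and 0.00 for all genes. Over genes at 10 FPKM or above it was -0.09 for the 44 members and 0.08 for all 6368 genes. In this comparison the 3 eIF4G genes lay between 0.42 and 0.68 and the kinases *Eif2ak1*, *Eif2ak4* and *Eif2ak3* at 0.51, 0.66 and 1.01.

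The upstream regulators and partners of these factors were read from a list of 35 genes, and 3 were higher and 7 lower in TubA-20 than in GV (8.57% and 20.0%, where 7.61% and 11.7% of all genes were, and 22.5% and 27.4% of those at 10 FPKM or above). The median of the list was -0.13, that of all genes 0.00 and that of genes at 10 FPKM or above 0.27. In MII 3 of them were higher and 4 lower than in GV (8.57% and 11.4%, where 3.05% and 8.34% of all genes were, and 9.22% and 21.5% of those at 10 FPKM or above). In TubA-10 1 was higher and 4 lower (2.86% and 11.4%, where 0.742% and 5.6% of all genes were, and 1.82% and 14.7% of those at 10 FPKM or above). *Dnajc3*, the inhibitor of eIF2 kinases P58IPK, was at 53.9 FPKM in GV, 128 in MII, 101 at the lower and 132 at the higher TubA dose, and rose in MII (1.23) and TubA-20 (1.28). *Rheb*, the GTPase that activates mTORC1, was at 64.6 FPKM in GV, 140 in MII, 112 at the lower and 172 at the higher dose, and rose in MII (1.10) and TubA-20 (1.40) but not in TubA-10 (0.78). *Ppp1cb*, a catalytic subunit of the phosphatase that acts on eIF2α, was at 7.53, 13.4, 12.99 and 20.2 FPKM and passed 2-fold in TubA-20 (1.31), with 0.76 in MII and 0.71 in TubA-10. The S6 kinase gene *Rps6kb1* was at 8.47, 18.8, 18.4 and 16.9 FPKM and rose in MII (1.07) and TubA-10 (1.04), with 0.92 in TubA-20. Of the 6 poly(A)-binding proteins and partners on the list, *Pabpc1l* (-1.62) and *Paip2* (-2.07) fell from GV to TubA-20, while *Pabpc1* (0.25), *Pabpc4* (0.07), *Paip1* (0.93) and *Paip2b* (-0.29) stayed within 2-fold. *Pabpc1l*, the oocyte poly(A)-binding protein ePAB, was at 69.1 FPKM in the GV library, 51.9 in MII, 69.9 at 10 μM and 21.8 at 20 μM TubA, and *Paip2*, which displaces poly(A)-binding protein, was at 293, 234, 357 and 69.2 FPKM. Against MII the TubA-20 level was lower for *Pabpc1l* (-1.22) and *Paip2* (-1.74). The re-initiation factors *Mcts1* and *Mcts2* fell against GV in MII (-1.62 and -1.14), TubA-10 (-1.81 and -1.41) and TubA-20 (-2.40 and -1.196). The other S6 kinase gene, *Rps6kb2*, fell in TubA-20 (-1.18), with -0.51 in MII and -0.22 in TubA-10. *Dhps* and *Dohh*, the enzymes that make hypusine on eIF5A, fell against GV in MII (-2.35 and -2.44), TubA-10 (-2.19 and -1.45) and TubA-20 (-2.41 and -2.89), while *Eif5a* itself stayed within 2-fold.

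Of 11 elongation and termination genes none rose against GV in the cultured libraries, where 3.05% (MII), 0.742% (TubA-10) and 7.61% (TubA-20) of all genes did. In MII 5 fell, in TubA-10 4 and in TubA-20 5, where 8.34%, 5.6% and 11.7% of all genes fell, and 21.5%, 14.7% and 27.4% of those at 10 FPKM or above. The medians of the list were -0.92, -0.66 and -0.78, and those of all genes were 0.00. Those of genes at 10 FPKM or above were 0.14, 0.19 and 0.27. *Eef1a1*, which carries tRNA to the ribosome, was at 508.5 FPKM in GV and 129 in MII, with 159 in TubA-10 against 60.1 in TubA-20. *Eef1d*, a subunit of its exchange factor, was at 865, 137, 173 and 61.7 FPKM in the same order. Both were highest in GV and lowest in TubA-20, with changes of -3.06 and -3.79 in TubA-20 against GV. The subunits of the exchange factor did not all fall. *Eef1g* fell like *Eef1d*, with changes of -1.60 (MII), -1.63 (TubA-10) and -1.79 (TubA-20). *Eef1b2* stayed within 2-fold of GV instead, with -0.33, 0.17 and 0.11 for the same comparisons. Its level ranged from 163 to 230 FPKM and was the highest of the list in every cultured library.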

How the data were processed

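Poly(A)+ RNA was selected with oligo(dT), and strand-specific libraries were sequenced in pairs of 100 bases. The authors deposited 1 table of FPKM values for 21959 Ensembl entries, made with Cufflinks on mm10; the submitters' processing notes also name STAR 2.5.0 and Cuffdiff 2.2.1, and the RNA kit differs between labels and paper. Symbols were joined by identifier, 165 entries had none, and entries with 1 symbol were added up, giving 21957 genes. No scaling was applied. Log2 ratios of FPKM + 1 were called past 2-fold in 6 comparisons, with no test, since each condition has 1 library. All 4 values are given for 40 members, those with at least 10 FPKM in 1 library that passed 2-fold in a comparison and all eIF2 kinases and 4E-binding proteins, and for some others. The members and lists were chosen with earlier results of these data known. Shared windows were runs of 100 bases found in the transcripts of another gene. The 3′ UTRs were those of principal transcripts in GENCODE M21. Read totals were not used, so depths are estimates from the steps between low values, with 20.9% (MII), 27.0% (TubA-10) and 78.8% (TubA-20) of genes near the step on it. Pseudocounts of 0.1 and 0.01, minimums of 1 and 5 FPKM in 1 of the libraries compared, a 3-fold threshold and 4 scalings were tried. Scripts were tested on simulated data (Python 3.11.15, numpy 2.4.6, pandas 2.3.3, matplotlib 3.10.9, Biopython 1.88).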

Additional observations from a re-analysis of the deposited data

How the results depend on the processing

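No paired analysis was possible because each condition has 1 library. No result changed direction past the threshold, and 145 of 174 alternative values of counts and medians stayed close to the reported ones. The count of higher members moved most. With the median change set to 0 it was 2, 1 and 5 against GV (MII, TubA-10, TubA-20), and 0 in TubA-20 against TubA-10. With equal FPKM sums it was 8 in MII against GV and 0 in TubA-20 against TubA-10, and 8 members were lower in TubA-20 than in MII. With equal upper quartiles 2 were lower in TubA-20 than in MII and 2 higher than in TubA-10. With equal *Gapdh* it was 11 (MII) and 7 (TubA-10) against GV, 8 were lower in TubA-20 than in MII, and 0 were higher in TubA-20 than in TubA-10. A pseudocount of 0.1 gave 2 higher in TubA-20 than in TubA-10, and 0.01 gave 2 higher there, 1 higher and 2 lower in TubA-10 than in MII, and 8 lower in TubA-20 than in MII. A minimum of 5 FPKM in 1 of the libraries compared, rather than in any of the 4, left 0 lower in TubA-10 than in MII and a median of -0.86 for TubA-20 against GV, over fewer genes. A 3-fold threshold left 0 higher in each comparison, 10 lower in TubA-10 against GV, 0 lower in both comparisons with MII, and 2 lower in TubA-20 against TubA-10. The cause of the shifts with scaling was not tested. Searching the last 300 bases, the whole UTR or the longest UTR for a CPE, chosen after seeing the data, gave 14, 27 and 6 of 53 genes, against 31.0%, 54.7% and 17.2% of all genes.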
